A study of Mus musculus with 4 samples.

Results

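The 10 genes described here encode the module that carries the signal from Toll-like and interleukin 1 receptors to the kinase TAK1. The genes are Myd88, Irak1, Irak2, Irak3, Irak4, Traf1, Traf6, Map3k7, Tab1 and Tab2. They were chosen by name and not by a threshold on their values, though with earlier results of these data known, and all 10 were found among the 40213 gene symbols listed in each library. All libraries were made from RAW264.7, a mouse macrophage line transformed by Abelson leukaemia virus. After attachment the cells spent 48 h with the material, and RNA sequencing gave 2 libraries titled Gel and 2 titled CuNZ@Gel. Both groups share the cell line and the hydrogel. The labels describe treatment with CuNZ@Gel only and do not spell out CuNZ, so what the Gel cells received was taken from the titles. The labels do not say whether replicates are separate cultures. The p-values therefore measure the spread of these libraries alone, and it may be technical.

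In this pathway, ligand-bound receptors recruit the adaptor MyD88 through its TIR domain. MyD88 then gathers the kinases IRAK4, IRAK1 and IRAK2 through death domains into a signalling platform called the Myddosome. IRAK1 and IRAK2 engage the ubiquitin ligase TRAF6, and the ubiquitin chains it builds are read by TAB2. TAB2 holds the kinase TAK1, encoded by Map3k7, together with its activator TAB1. TAK1 then phosphorylates the IKK complex and the MAP kinase kinases, which leads to NF-kB and AP-1 activity. IRAK3, also called IRAK-M, is a catalytically weak family member known for restraining the pathway in macrophages. TRAF1 lacks the RING domain of the other TRAF proteins and is itself a known NF-kB target.

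Values are scaled CPM, meaning CPM divided by 1 further factor per library, recovered from the deposited log2(scaled CPM + 1) values. Recovered library totals ran from 13718000 to 14881000 reads, and libraries of 1 group correlated across genes at a Pearson r of 0.995 in both groups. Of 11 macrophage markers, 10 reached 1 scaled CPM in at least 2 libraries, and Mertk did not. Their summed level was 6463 to 6598 scaled CPM in Gel and 9293 to 9476 in CuNZ@Gel. Lyz2, the largest, had a mean of 3079 in Gel and 5888 in CuNZ@Gel, and made up nearly all of that rise. Marker lists of 7 other cell types summed to at most 9.90 scaled CPM in any library. That highest sum was endothelial, led by Vwf, and it was 2.25 to 2.73 scaled CPM in Gel. Lum, Cd3e, Cd3g, Ms4a1, S100a9 and Mpo were at 0 in all 4 libraries. Fewer cells of a type and less RNA per cell cannot be told apart in such bulk libraries.

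The module split in CuNZ@Gel. Map3k7, Irak3 and Tab2 rose, and Irak1, Irak2, Traf1 and Tab1 fell, with the deposited scaling. The call of Tab2 held in 9 of 17 alternatives, 1 of the 4 fits without 1 library among them, and was lost under the replicate block (limma adjusted p = 0.0968) and after the length and GC correction. Irak2 did not pass when scaled by total reads only, nor Irak3 without the filter on low values, and with a minimum fold of 1.5 Map3k7 and Traf1 alone passed. Myd88, Irak4 and Traf6 did not pass the test. With the deposited scaling the largest rise was that of Map3k7 (1.81-fold), and the largest fall that of Traf1 (2.49-fold lower). After the length and GC correction Irak3 (0.59 on the log2 scale) stood above Map3k7 (0.56). All 10 genes passed the filter on low values, which asked for 1 scaled CPM in at least 2 libraries. With limma at an adjusted p under 0.05, 7 of the 10 were called, against 67.1% of the 11588 genes tested. The 3 raised members stand beside a background of 32.2%, and the 4 lowered beside 34.8%. For 8 of the 10 members both groups stayed apart, against 83.2% of tested genes. These shares are near the background, so the count of changed members does not set the module apart. The members' median log2 change was -0.10, and that of all tested genes was -0.03.

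The promoter windows of the module show how different the starts of these genes are, and those of the genes at the 2 ends of the response are shown in full. RefSeq promoter sequences (build GRCm38.p6, whereas the deposited values were made on GRCm39) were matched by symbol for 9 of the 10 members. A gene can have other starts than those in the table. The 250 bases before the start are printed 5′ to 3′ on the gene's strand for Map3k7 and Traf1, which rose and fell most with the deposited scaling. Capitals mark a match to the kappa B letters GGGNNNTTCC, a motif of NF-kB, searched on both strands.
Map3k7 (chr4:31963857-31964106, plus strand): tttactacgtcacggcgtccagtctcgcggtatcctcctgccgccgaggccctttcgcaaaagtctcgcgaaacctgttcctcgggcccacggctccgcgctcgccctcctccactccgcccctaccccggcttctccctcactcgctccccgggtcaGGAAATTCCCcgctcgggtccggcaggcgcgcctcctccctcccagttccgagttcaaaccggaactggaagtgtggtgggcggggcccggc
Traf1 (chr2:34961773-34962022, minus strand): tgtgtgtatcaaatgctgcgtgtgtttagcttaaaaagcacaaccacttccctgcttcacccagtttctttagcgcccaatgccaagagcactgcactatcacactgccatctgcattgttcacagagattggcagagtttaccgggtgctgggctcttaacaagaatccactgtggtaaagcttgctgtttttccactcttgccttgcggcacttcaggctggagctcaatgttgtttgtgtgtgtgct
The Map3k7 window is 68% G or C with 28 CpG pairs. That of Traf1 is 48% G or C with 4 CpG pairs. Over 32851 RefSeq windows the middle values were 52.4% and 6 CpG pairs.

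In all, 4 motifs were searched on both strands of the 300-base windows, and no match overlapped another. The kappa B letters were found in Map3k7 alone among the members, 92 to 83 bases before its start, and in 5.56% of all windows. The letters TGACNNNGC, the core of the antioxidant response element that NRF2 binds, were found in Irak2, Tab2 and Irak4, and in 12.4% of all windows. The letters GAAANNGAAA, which resemble an interferon response element, were found in Myd88 and in 3.44% of all windows. The AP-1 letters TGANTCA, found in 7.81% of all windows, were in none of the member windows. A match is a description of letters and no evidence of binding. These 4 stretches are shown because they hold the matches, in capitals, outside Map3k7.
Irak2 (chr6:113638399-113638457, plus strand): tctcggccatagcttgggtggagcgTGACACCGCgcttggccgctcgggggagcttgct
Tab2 (chr10:7956283-7956341, minus strand): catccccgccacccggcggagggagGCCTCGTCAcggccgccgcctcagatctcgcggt
Irak4 (chr15:94543410-94543458, plus strand): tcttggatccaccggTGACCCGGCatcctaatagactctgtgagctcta
Myd88 (chr9:119340024-119340083, minus strand): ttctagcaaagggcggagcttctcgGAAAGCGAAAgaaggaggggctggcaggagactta
Genes with the same letters did not share a direction: of the 3 with TGACNNNGC, Irak2 fell, Tab2 rose and Irak4 did not pass the test.

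**Figure D1:**
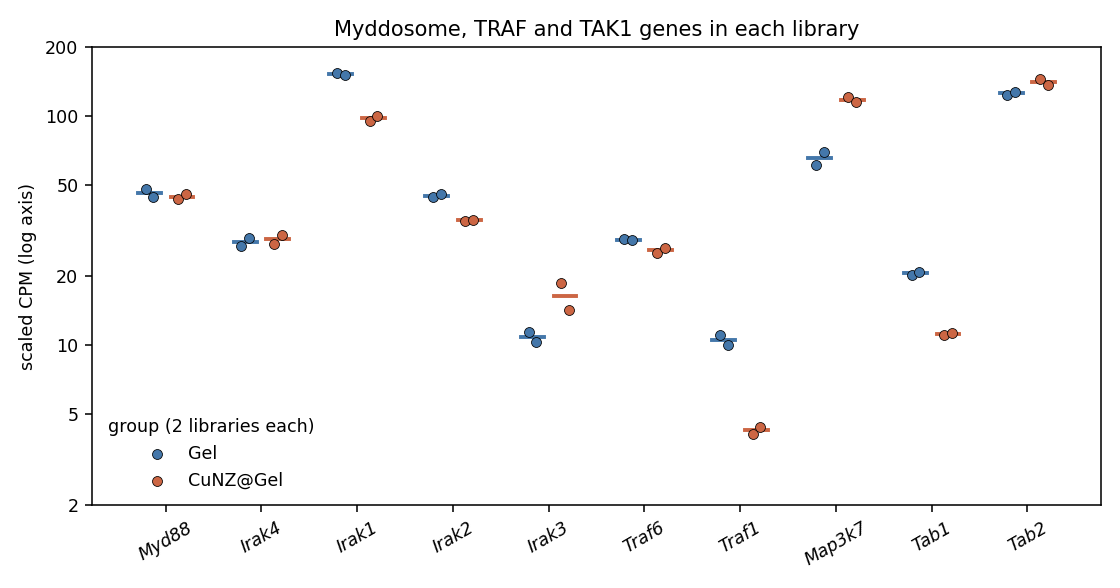
Level of each of the 10 genes in scaled CPM (vertical log axis). Each point is 1 library, blue for Gel and orange for CuNZ@Gel, and bars are the means of 2 libraries. The groups overlap for Myd88 and Irak4 and are apart for the other 8 genes, and the 2 CuNZ@Gel libraries differ most from each other for Irak3.

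Levels of different genes can be set side by side only per transcript length, here scaled CPM per kilobase of the longest GENCODE vM21 transcript. On this scale Irak1 was highest in Gel at 39.8 ± 0.648 (SD, n = 2), followed by Tab2 at 28.7 ± 0.780, Myd88 at 18.8 ± 1.08 and Irak2 at 14.1 ± 0.331. Map3k7 stood at 11.3 ± 0.997, Irak4 at 8.22 ± 0.480, Tab1 at 6.94 ± 0.175 and Traf6 at 4.69 ± 0.0119. Irak3 and Traf1 were lowest, at 3.51 ± 0.233 and 3.07 ± 0.214, and these neighbours differed by less than the sum of their SDs. In CuNZ@Gel, Tab2 was highest at 32.3 ± 1.35 scaled CPM per kilobase, before Irak1 at 25.5 ± 0.948. Map3k7 came next at 20.5 ± 0.759, above Myd88 at 18.1 ± 0.581, where it had been below Myd88 and Irak2 in Gel. Tab1, at 3.77 ± 0.0624, lay below Irak3 (5.32 ± 0.998) and Traf6 (4.21 ± 0.156), whereas in Gel it lay above both. Irak3 and Traf6 in CuNZ@Gel differed by less than the sum of their SDs. Traf1 was again lowest, at 1.23 ± 0.0575. Lengths come from the longest transcript, which may not be the one these cells use.

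The levels of the adaptor and of the first kinase of the Myddosome overlapped between the groups. Myd88 had 48.0 and 44.3 scaled CPM in the Gel libraries and 43.5 and 45.6 in the CuNZ@Gel libraries. These ranges overlapped, and the log2 change was -0.05 with a 95% interval from -0.23 to 0.13 (limma adjusted p = 0.623). Irak4, the kinase that phosphorylates IRAK1, had 27.1 and 29.4 scaled CPM in Gel and 27.6 and 30.4 in CuNZ@Gel, again with overlap. Its log2 change was 0.04 with an interval from -0.17 to 0.24 (limma adjusted p = 0.764). The intervals rest on 2 libraries a group and on an estimate of the spread that limma shares across genes. They leave room for changes of these sizes. In GENCODE vM21 both genes share exonic bases with a gene on the opposite strand, and the use of strand in counting is not given in the sources used here. Myd88 shares 290 bases with Acaa1a, which fell from 168 ± 17.6 to 91.3 ± 9.75 scaled CPM (SD, n = 2). Irak4 shares 395 bases with Twf1, which rose from 46.4 ± 4.59 to 78.7 ± 5.81. The part of these neighbours in the values of Myd88 and Irak4 was not tested.

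Irak1, the kinase that carries the signal from the Myddosome to TRAF6, fell 1.56-fold. It had 154 and 151 scaled CPM in Gel and 95.4 and 101 in CuNZ@Gel. Both CuNZ@Gel libraries lay well below both Gel libraries, with a log2 change of -0.64 (SE 0.0666, limma adjusted p = 3.78e-08). With about 1514 to 2131 reads a library, it is among the best counted of the 10 genes. Irak2, which sustains later signalling through TRAF6, fell less, from 44.2 and 45.7 scaled CPM to 34.7 and 35.4. The groups did not overlap and the log2 change was -0.35 (SE 0.0867, limma adjusted p = 0.00130). Irak2 shares 196 exonic bases with the opposite-strand gene Gm43963, whose part was not tested. Under scaling by total reads only, Irak2 no longer passed, at -0.17 (limma adjusted p = 0.0954).

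Irak3, the inhibitory member of the family, moved opposite to Irak1 and Irak2. It had 11.4 and 10.4 scaled CPM in Gel and 18.7 and 14.3 in CuNZ@Gel. The groups were apart, but the 2 CuNZ@Gel libraries differed from each other by more than the lower one differed from Gel replicate 1. The log2 change was 0.55 (SE 0.137, limma adjusted p = 0.00144). Leaving out CuNZ@Gel replicate 1 gave 0.37 and leaving out replicate 2 of that group gave 0.73, so the size of the rise leans on replicate 1. Irak3 shares 192 exonic bases with the opposite-strand gene Tmbim4, which rose from 26.4 ± 3.59 to 36.9 ± 1.61 scaled CPM, and its part was not tested.

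The 2 TRAF genes differed in how far they moved. Traf6, the ubiquitin ligase of the pathway, had 29.0 and 28.9 scaled CPM in Gel and 25.3 and 26.6 in CuNZ@Gel. The CuNZ@Gel libraries were lower in both cases, but the log2 change of -0.15 did not pass (95% interval from -0.36 to 0.05, limma adjusted p = 0.179). It was 0.03 with total reads only. Corrected for length and GC content it was -0.46 and passed (limma adjusted p = 0.000264). Traf1 had 11.1 and 10.0 scaled CPM in Gel and 4.10 and 4.38 in CuNZ@Gel, on 129 to 153 and 65 to 69 reads a library. It fell by 1.14 on the log2 scale (SE 0.151, limma adjusted p = 1.06e-06), the largest change of the 10 genes in either direction with the deposited scaling, whereas with total reads only that of Map3k7 was larger. Of the 11588 genes tested, 1091 had a larger absolute change.

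The kinase and its 2 partners took 3 different courses. Map3k7 had 61.4 and 69.5 scaled CPM in Gel and 121 and 115 in CuNZ@Gel. Both CuNZ@Gel libraries stood far above both Gel libraries, with a log2 change of 0.85 (SE 0.0758, limma adjusted p = 3.52e-09). Corrected for length and GC content the change was smaller, 0.56, and still passed (limma adjusted p = 4.04e-07). Tab1, the activating partner, had 20.2 and 20.9 scaled CPM in Gel and 11.0 and 11.3 in CuNZ@Gel. It fell 1.84-fold with tight replicates (log2 change -0.83, SE 0.119, limma adjusted p = 3.42e-06).

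Tab2, the partner that reads ubiquitin chains, had 123 and 128 scaled CPM in Gel and 146 and 137 in CuNZ@Gel. The groups did not overlap, and the rise was 1.12-fold (log2 change 0.17, SE 0.0663, limma adjusted p = 0.0324). The other 6 called genes passed in 15 to 17 of the alternatives. The call of Tab2 was lost without Gel replicate 1 (0.14, adjusted p = 0.217), without Gel replicate 2 (0.19, adjusted p = 0.0758) and without CuNZ@Gel replicate 1 (0.12, adjusted p = 0.179), each by limma. After the length and GC correction Tab2 was at 0.04, and with total reads only at 0.35.

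**Figure D2:**
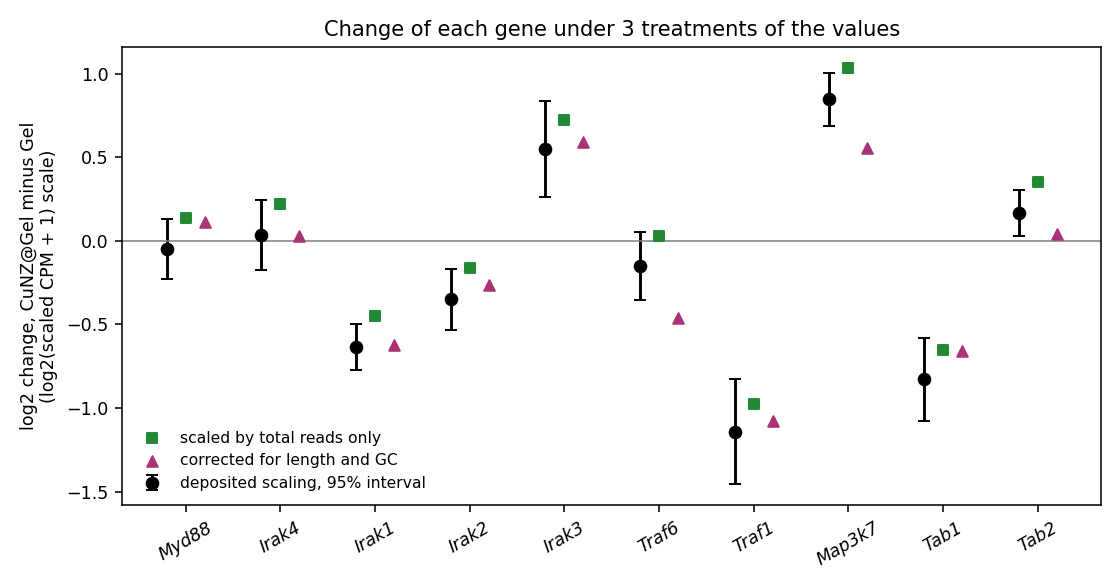
Log2 change of each gene, CuNZ@Gel minus Gel, on the log2(scaled CPM + 1) scale. Black points with 95% intervals use the deposited scaling, green squares total reads only, and purple triangles the length and GC correction. Irak1, Traf1 and Tab1 lie below 0 and Irak3 and Map3k7 above 0 in all 3, while Myd88 and Traf6 change sign between them.

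Scaling and transcript properties bear on these changes. Scaling by total reads only moved the median log2 change of all tested genes from -0.03 to 0.15, and raised genes then made up 63.7% of calls in place of 48.1%. Such a scaling moves all genes of a library alike, and Map3k7 was then at 1.03 and Traf1 at -0.98. Longer transcripts tended to higher log2 changes over the tested genes (Pearson r 0.280 with log2 length, -0.169 with GC content), where genes are not independent replicates. Map3k7 and Traf6, with transcripts of 5773 and 6169 bases, are the longest of the members, and Tab1 has the highest GC content at 58.2%. Tested by limma for a fold above 1.5, the members that passed were Map3k7 and Traf1 (adjusted p = 0.00941 and 0.00547).

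Ratios of 2 genes within a library do not depend on the library scaling, and 8 pairs were computed. Each library gave Map3k7 at 3.04 and 3.32 times Tab1 in Gel and at 11.0 and 10.2 times Tab1 in CuNZ@Gel, on the scaled CPM scale. This was the widest shift of the 8, 1.74 on the log2 scale. Tab1 fell relative to Tab2 from ratios of 0.164 and 0.163 to 0.0758 and 0.0824. Map3k7 went from 0.497 and 0.542 of Tab2 to 0.833 and 0.839. The kinase transcript thus gained on both partners, and the partners moved apart from each other. These ratios are not corrected for length or GC content, in which the genes of a pair differ. After that correction the log2 changes were 0.56 for Map3k7, -0.66 for Tab1 and 0.04 for Tab2, so the gaps were narrower.

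Among the IRAK genes, Irak1 stood at 5.70 and 5.13 times Irak4 in Gel and at 3.46 and 3.31 times in CuNZ@Gel. Irak3 went from 0.420 and 0.352 of Irak4 to 0.676 and 0.470. Irak2 was 0.286 and 0.303 of Irak1 in Gel and 0.364 and 0.352 in CuNZ@Gel, so the 2 genes changed unequally. Traf1 dropped from 0.382 and 0.348 of Traf6 to 0.162 and 0.164. After the length and GC correction the log2 changes of Traf1 and Traf6 lay closer together, at -1.08 and -0.46. Myd88 to Irak4 was the pair whose groups overlapped, at a mean of 1.64 ± 0.190 for Gel and 1.54 ± 0.0559 for CuNZ@Gel (n = 2, SD). With 2 libraries against 2, the smallest two-sided p of an exact permutation test is 0.333, so no ratio can pass that test, and the ratios are given as descriptions.

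**Figure D3:**
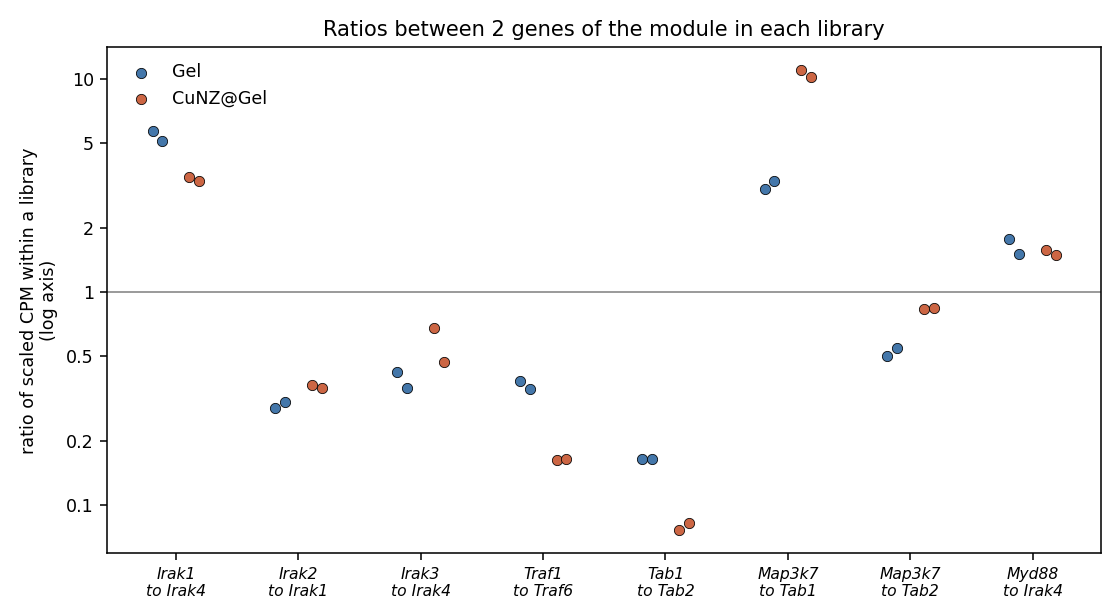
Ratio of the scaled CPM of 2 genes within each library (vertical log axis), for 8 pairs. Points are libraries, blue for Gel and orange for CuNZ@Gel. The Map3k7 to Tab1 ratio is 3.04 and 3.32 in Gel against 11.0 and 10.2 in CuNZ@Gel, and Myd88 to Irak4 overlaps.

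The rest of the pathway was read from 6 lists, in which 68.4% to 90.0% of tested genes were called, beside the background of 67.1%. Over all tested genes 32.2% were raised and 34.8% lowered with the deposited scaling. With total reads only, 5038 of 11601 tested genes were raised and 2869 lowered. The counts of a list under these scalings therefore have different backgrounds. Of the receptors that use MyD88 and the co-receptors Cd14 and Ly96, 13 of 16 could be tested. In this list 8 genes were raised, Cd14 and Ly96 among them, and 2 lowered. The list median was 0.24 (log2 change) beside -0.03 for all tested genes. With total reads only these counts were 9 and 0. The lowered genes, Tlr2 and Tlr7, named after their values were seen, had log2 changes of -0.17 and -0.26, and with any 1 library left out 0 to 1 receptors were lowered. Tlr13, a sensor of bacterial ribosomal RNA, rose from 78.1 ± 2.05 to 166 ± 7.79 scaled CPM (SD, n = 2). Il18rap and Il1rl1, which encode subunits of the interleukin 18 and interleukin 33 receptors, rose 3.39-fold and 3.07-fold. Il18r1, which encodes the other interleukin 18 receptor subunit, had 0 reads in each Gel library and 2 in each CuNZ@Gel library. Like Tlr5 and Il1r1, it was too low to be tested. Tlr9, a sensor of CpG DNA, rose from 4.50 ± 0.0890 to 11.0 ± 0.884. The largest limma adjusted p of the 4 was 1.07e-06.

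Adaptors and inhibitors beside MyD88 moved both ways: of 7 tested, 2 were raised and 3 lowered (median -0.14), or 3 and 2 with total reads only. Pik3ap1, the adaptor BCAP, rose from 93.1 ± 2.49 to 200 ± 20.2 scaled CPM, and Tirap, which bridges receptors to MyD88, rose 1.46-fold. Ticam2, the adaptor TRAM of the MyD88-independent arm, fell from 44.5 ± 0.357 to 15.3 ± 2.96. Sigirr, an inhibitory receptor, fell 1.78-fold to 2.59 ± 0.793 scaled CPM, and was no longer called without Gel replicate 1 (-0.42, limma adjusted p = 0.118) or without CuNZ@Gel replicate 2 (-0.42, limma adjusted p = 0.107). After correction for length and GC content Sigirr did not pass either (-0.40, limma adjusted p = 0.0857), and 2 genes of this list were raised and 1 lowered.

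Among 16 other TRAFs and partners, 8 rose and 4 fell (median 0.20), or 9 and 3 with total reads only. Traf4 and Traf3 rose 3.20-fold and 1.81-fold, the latter known to restrain noncanonical NF-kB signalling. Ripk1, a kinase of TNF receptor signalling, rose from 52.8 ± 0.343 to 82.5 ± 0.982 scaled CPM. Tifa, which oligomerizes TRAF6, fell from 43.3 ± 1.35 to 25.1 ± 4.16.

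Among 19 tested genes for ubiquitin enzymes of the pathway and related proteins, 5 rose and 8 fell (median -0.11). With total reads only, 8 rose and 5 fell. The list also holds genes such as Tax1bp1 (raised) and Sharpin (lowered), whose products are not enzymes. The raised count was 2 without Gel replicate 1, without Gel replicate 2 or without CuNZ@Gel replicate 2. Usp18, which also restrains interferon signalling, fell 2.56-fold from 49.6 ± 2.16 scaled CPM. Otulin, which removes linear ubiquitin, and Rbck1, the HOIL-1 subunit of the ligase that builds it, fell 1.89-fold and 1.53-fold. Cyld, a deubiquitinase that restrains the pathway, rose 1.49-fold, and no longer passed after the length and GC correction (0.14, limma adjusted p = 0.0688).

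Of 19 tested genes for the IKK complex, IKK-related kinases and MAP kinase cascades, 10 rose and 4 fell (median 0.23), or 14 and 3 with total reads only. Ikbkg, the regulatory IKK subunit NEMO, rose from 31.5 ± 2.18 to 87.8 ± 4.35 scaled CPM. Tbk1 and Map2k4, a kinase of the interferon arm and a kinase of JNK, rose 1.59-fold and 1.64-fold. Mapkapk2, a kinase downstream of p38, fell from 333 ± 12.9 to 222 ± 6.43. Among 20 genes that NF-kB induces or that belong to it, 10 rose and 8 fell (median 0.08), or 10 and 5 with total reads only. The lowered count was also 5 without CuNZ@Gel replicate 1. In that list Ccl3, Ccl4 and Ptgs2 rose 1.97-fold, 2.44-fold and 3.38-fold. Gadd45b, a stress-induced gene, fell from 28.9 ± 0.352 to 7.21 ± 0.947 scaled CPM. The other lowered genes, named after their values were seen, were Nfkbia, Nfkbib, Nfkbiz, Nfkb1, Relb, Bcl3 and Cxcl2. The other raised genes were Rela, Tnf, Il1a, Il1b, Icam1, Sod2 and Ier3.

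**Figure D4:**
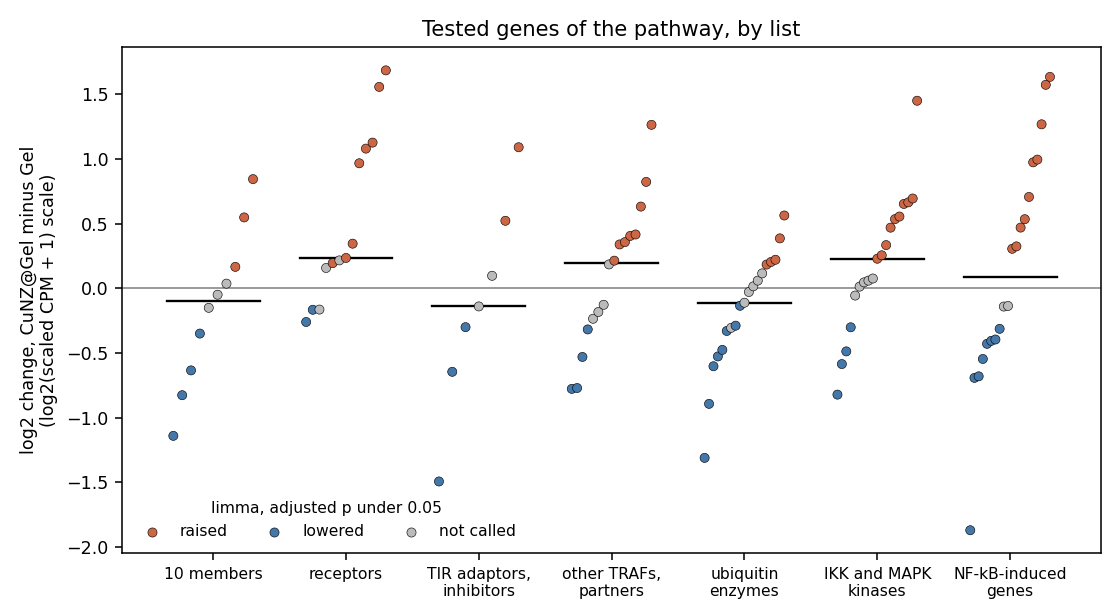
Log2 change of each tested gene, CuNZ@Gel minus Gel, on the log2(scaled CPM + 1) scale, for the 10 members and 6 pathway lists. Orange points were raised, blue lowered and grey not called by limma at an adjusted p under 0.05, and bars are list medians. Every list holds raised and lowered genes with this scaling (the receptor list has none lowered with total reads only), and the members span -1.14 to 0.85.

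Likeness to other genes was measured over the 4 libraries as the Euclidean distance between log2 values centred on their mean. Closest to Map3k7 were Gm40453, Lims1 and Gm51522, at distances of 0.0164, 0.0210 and 0.0311 log2 units, and 463 tested genes lay within 0.2. Closest to Irak1 were Ezh2, Dhx16 and Bckdhb, at 0.0182, 0.0209 and 0.0228, and 1051 tested genes lay within 0.2. With 4 libraries in 2 groups such neighbours are many.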

How the data were processed

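RNA from RAW264.7 cells was extracted with TaKaRa RNAiso Plus and made into libraries with the CORALL RNA-seq V2 kit, per the labels. The submitters' processing notes name the tools STAR, Salmon, fastp and GATK and the build GRCm39; versions, roles, annotation, normalization and the handling of strand were not given. Each deposited file lists a log2 value for every gene symbol, which the values show to be log2(scaled CPM + 1). Between 92.6% and 93.5% of low values were whole multiples of 1 step per library within 0.02 reads, which gave the reads behind each value.

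The planned fit was used: limma 3.58.1 in R 4.3.3, with trend, on the deposited log2 values of all 4 libraries, with genes at 1 scaled CPM or more in at least 2 libraries, group as the only term and Benjamini-Hochberg adjustment over 11588 genes. On that scale, with its pseudocount of 1, changes of low genes are understated. Transcript length and GC content are those of the longest GENCODE vM21 transcript, found for 95.6% of tested genes, and the correction removed a spline in both from each library. In a simulation with 11475 genes tested, 50 genes were changed at each fold, at a set dispersion of 0.004. Of these, 18.0% were called at 1.25-fold, 74.0% at 1.5-fold and 98.0% at 2-fold. In the data 67.1% of tested genes were called, a far larger share than was changed in the simulation. The adjusted threshold is therefore less strict in the data, and these rates do not carry over to it.

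The members and lists were chosen with earlier results of these data known. All 10 members are named, and from each list the 4 called genes with the smallest p, and the 3 genes closest to the raised and the lowered member of smallest p. Alternatives were other scalings, limma-voom on recovered reads, a pseudocount of 0.1, other filters, a minimum fold of 1.5, each library left out, the replicate number as a block, and the length and GC correction.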

Additional observations from a re-analysis of the deposited data

How the results depend on the processing

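Across 17 alternatives, 146 of 170 member results kept their direction and their side of the threshold, 14 lost the call, 2 gained it and 8 changed sign. Of the 24 named pathway genes, 391 of 407 results kept both and 16 lost the call. With a minimum fold of 1.5, 1955 genes were called in place of 7770, with 1 member raised and 1 lowered. Without a filter 1 member was raised, since Irak3 and Tab2 no longer passed (limma adjusted p = 0.0581 and 0.0708). The sign changes were in members that were not called. Myd88 was at 0.14 with total reads only, 0.081 without mitochondrial and ribosomal RNA genes, and 0.11 after the length and GC correction, alone or with the replicate block. Traf6 was at 0.032 with total reads only. Irak4 kept its sign with that scaling, at 0.219, and did not pass (limma adjusted p = 0.0588). With 1 library left out, Myd88 ranged from -0.107 to 0.0080 and Irak4 from -0.0315 to 0.104. In those fits 6616 to 6966 genes were called, 2 to 3 members were raised and 4 lowered. A ratio with a pseudocount of 0.1 stayed within the spread for all 8 pairs.

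The labels do not say whether same-numbered libraries belong together. Their deviations from the group means correlated at -0.116 over tested genes, which cannot settle it with 2 libraries a group. With the replicate block, 7489 genes were called, 2 members raised and 4 lowered, Tab2 being lost at an adjusted p of 0.0968. The block also left 1 receptor lowered in place of 2 and 3 genes of the ubiquitin list raised in place of 5. A crossed block, added after the data were seen, called 8370 genes, with 3 members raised and 4 lowered. Depth limits Traf1 most, at 65 to 153 reads a library.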
